A study of Mus musculus with 8 samples.

Results

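The serpin genes were described in medullary thymic epithelial cells (mTECs) of the mouse. Members were taken by symbol: Serpin, a clade letter from a to i, and a number with an optional letter. This found 54 of the 22446 named genes on the array, read by 73 of its 46089 probes. Of these, 32 serpins lay above background in both arrays of at least 1 group and were tested, among 14392 tested genes in all.

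mTECs are epithelial cells of the thymus that display proteins of other tissues to developing T cells. CD80, a costimulatory molecule, is high on mature mTECs and low on less mature ones. The groups were ko CD80high, wt CD80high, ko CD80low and wt CD80low, with 2 arrays each. The ko arrays held RNA of mice in which Hipk2, a nuclear serine/threonine kinase, had been deleted only in thymic epithelial cells (TECs), and the wt arrays RNA of wild-type control mice from the matings. The promoter that drove the deletion and the ages of the mice are not given in the labels. The labels call the 2 arrays of a group biological replicates without saying which mice each came from.

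Serpins are proteins with 1 shared fold. Most trap a serine protease by offering a reactive loop that the protease cuts and is then unable to leave, while some carry hormones or chaperone other proteins. Most serpins of clades a, c, d, f and g are secreted into plasma, mainly by the liver. Clade a also holds members known from other sources, such as Serpina9 and Serpina12, described below. Clade b serpins lack a classical secretion signal and act mostly inside epithelial cells and leukocytes, and clades e, h and i hold serpins of the extracellular matrix, the secretory pathway and the nervous system. Members were therefore read in 3 classes: 23 plasma serpins (clades a, c, d and g and Serpinf2), 25 serpins of clade b, and 6 others (clades e, h and i and Serpinf1). Of the plasma class 15 were tested, of clade b 12 and of the others 5.

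Promoter sequence was available for most members. The windows of 8 serpins, picked by hand from those that differed between the subsets in both genotypes, are shown. Serpina3n, also lower in CD80high cells of both genotypes, had a listed promoter of 48.7% GC content that is not shown. Each window runs from 80 bases before to 20 bases after the first start listed in RefSeq, on the gene's own strand, in build GRCm38.p6. The first 5 genes were higher in CD80high cells and the last 3 were lower. Capitals mark matches, on either strand, to 5 motifs: the TATA box (TATAAA), the CCAAT box, the GC box (GGGCGG), the AP-1 site (TGA, any base, TCA) and the heat shock element (GAANNTTC). The windows lie at chr1:106934369-106934468 (plus strand) for Serpinb12, chr1:107511343-107511442 (plus) for Serpinb2, chr1:107278352-107278451 (minus) for Serpinb3c, chrX:139085217-139085316 (minus) for Serpina7, chr12:104044424-104044523 (minus) for Serpina12, chr7:99353220-99353319 (minus) for Serpinh1, chr11:75422604-75422703 (minus) for Serpinf1 and chr1:79858646-79858745 (minus) for Serpine2.
Serpinb12: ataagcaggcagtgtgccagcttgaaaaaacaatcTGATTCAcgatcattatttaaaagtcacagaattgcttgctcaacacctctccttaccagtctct
Serpinb2: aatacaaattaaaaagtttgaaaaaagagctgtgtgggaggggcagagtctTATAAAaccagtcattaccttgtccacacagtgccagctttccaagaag
Serpinb3c: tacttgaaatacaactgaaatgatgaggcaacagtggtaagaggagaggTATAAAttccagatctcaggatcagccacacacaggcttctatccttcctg
Serpina7: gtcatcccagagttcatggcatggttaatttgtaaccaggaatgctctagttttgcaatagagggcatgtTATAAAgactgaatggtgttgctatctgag
Serpina12: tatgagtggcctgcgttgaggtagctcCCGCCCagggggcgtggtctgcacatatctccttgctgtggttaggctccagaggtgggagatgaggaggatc
Serpinh1: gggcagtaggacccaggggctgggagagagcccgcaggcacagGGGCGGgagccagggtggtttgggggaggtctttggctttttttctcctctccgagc
Serpinf1: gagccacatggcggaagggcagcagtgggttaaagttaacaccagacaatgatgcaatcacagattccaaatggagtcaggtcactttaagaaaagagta
Serpine2: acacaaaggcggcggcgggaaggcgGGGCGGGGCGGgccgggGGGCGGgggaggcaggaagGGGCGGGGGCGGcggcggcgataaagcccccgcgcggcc

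The TATA box began 29 bases before the start in Serpinb2, 31 in Serpinb3c and 10 in the start shown for Serpina7. In the Serpinb12 window the capitals are an AP-1 site 45 bases before the start. The Serpine2 window held 5 GC boxes, of which the first 2 overlap, and the Serpinh1 window 1. Over the 300 bases listed per start (250 before and 50 after), TATAAA occurred on either strand in 13.6% of all 32851 promoters of the table. It occurred in at least 1 listed promoter of 7 of the 12 serpins that were higher in CD80high cells of both genotypes and had a promoter listed, and in 0 of the 4 such serpins that were lower. The 7 were Serpina3b, Serpina7, Serpinb12, Serpinb2 and the closely related Serpinb3a, Serpinb3c and Serpinb3d. The match lay at -220 and -201 from the listed starts of Serpinb12, at -65 in Serpinb3a, and only on the other strand in Serpinb3d. Per promoter, as in the share over all, it occurred in 10 of 16 of the higher and 0 of 4 of the lower serpins. Serpinb2 and Serpina7 each have 2 listed starts whose 300 bases overlap and hold the same TATA box, which this count takes once per start. For serpins not tested it was 4 of 22, for those called in 1 genotype 1 of 7, and for those not called 1 of 6. Median GC content was 40.7% over the 16 promoters of the higher serpins and 56.5% over the 4 promoters of the lower ones, beside 52.7% over all promoters. A match shows that the letters are present, not that a factor binds there.

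Values are log2 intensities after background correction and quantile normalisation, and a change is the difference of group means on that scale. Calls come from limma over all tested genes at a Benjamini-Hochberg adjusted p under 0.05. Across the arrays 20434 to 22974 probes lay above background, and replicates correlated at r = 0.980 and 0.984 in ko and wt CD80high cells and at r = 0.968 and 0.965 in ko and wt CD80low cells. Aire, the regulator of tissue-restricted antigens, lay between 12.75 and 12.88 on the CD80high arrays and between 8.03 and 8.41 on the CD80low arrays, and Cd80 was also higher on every CD80high array. Hipk2 lay between 7.12 and 7.98 on the arrays labelled ko and between 7.03 and 7.52 on those labelled wt. The labels do not say where its probe lies relative to the deletion, so this probe does not check the genotype labels. Epcam, an epithelial marker, was above background on 5 arrays, while Krt8 and Krt14, keratins of TECs, were above background on all 8. The CD80low arrays of replicate 1 carried more thymocyte marker signal (mean log2 9.38 in ko and 9.41 in wt) than those of replicate 2 (7.27 and 7.26).

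Serpinb12, Serpinb2, Serpina12 and Serpina7 were the serpins furthest above their CD80low level in CD80high cells, and Serpinh1, Serpinf1, Serpina3n, Serpine2 and Serping1 were lower there in both genotypes. In ko, 16 of the 32 tested serpins were called higher and 6 lower in CD80high than in CD80low cells, where 22.1% and 18.8% of all tested genes were called. In wt, 17 were higher and 5 lower, beside 22.4% and 19.4% of all tested genes. The median change of the 32 was 0.58 in ko and 0.68 in wt, against -0.03 and -0.02 over all tested genes. With genes that only have a bound placed at that bound, the median of the 32 was 0.37 in ko and 0.54 in wt. In both genotypes 14 were higher and 5 lower, 6 were called in 1 genotype, 7 in neither, and 22 were not tested. Arrays of the subsets did not overlap for 19 higher and 8 lower serpins in ko and 23 and 6 in wt. Over all 14392 tested genes this held for 5056 higher and 5304 lower in ko and 5179 and 5293 in wt. Of the 32, 10 had passed the background filter only through CD80high groups, a route that favours higher values there, although Serpinb9f, 1 of the 10, changed by -0.07 in wt. Of the 10, 8 were called higher in ko and 7 in wt, beside 52.1% and 53.1% of all 2341 tested genes that passed that way. The other 22 passed through both subsets and were called 8 higher and 6 lower in ko and 10 higher and 5 lower in wt. Of all 11255 tested genes that passed through both subsets, 17.4% were called higher and 21.8% lower in ko and 17.6% higher and 22.3% lower in wt. The median change of the 22 serpins was 0.348 in ko and 0.398 in wt, against -0.125 and -0.126 over these 11255 genes. The RNA is from sorted pools, in which fewer cells of a type and less RNA per cell cannot be told apart.

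By class, clade b had 8 of 12 tested genes higher and 1 lower in ko, and 8 higher and 0 lower in wt. Its median change was 1.20 in ko and 1.32 in wt. The plasma class had 7 of 15 higher and 2 lower in ko, and 9 higher and 2 lower in wt, with medians of 0.50 and 0.98. Of the 5 other serpins, 1 was higher and 3 were lower in ko and 0 were higher and 3 lower in wt, with medians of -1.51 and -1.66. With genes that only have a bound placed at that bound, the clade b medians were 0.97 in ko and 1.09 in wt and the plasma medians 0.36 and 0.98. Of these genes, 4 of clade b, 5 of the plasma class and 1 of the others had passed only through CD80high groups. Without them, clade b had 5 of 8 genes higher and 1 lower in ko and 6 higher and 0 lower in wt. The median change of these 8 was 1.37 in ko and 1.40 in wt. The remaining 10 plasma genes had 2 higher and 2 lower in ko and 4 higher and 2 lower in wt, and so as many higher as lower in ko. Their median change was 0.265 in ko and 0.398 in wt, below the medians of the whole class. These counts describe the classes, and the difference between classes was not tested.

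**Figure D1:**
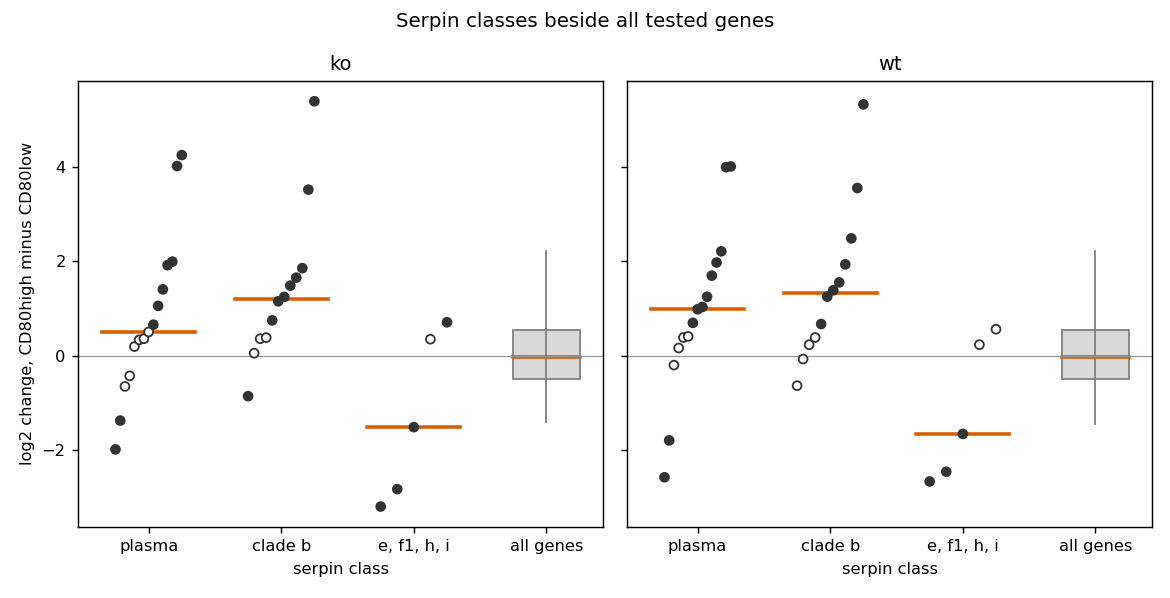
Log2 change of CD80high against CD80low cells (vertical axis) for each tested serpin, by class, in ko (left) and wt (right). Filled points passed an adjusted p under 0.05, orange lines are medians, and the box gives the quartiles of all 14392 tested genes with lines to their 5th and 95th percentiles. The median of the 5 serpins of clades e, f1, h and i was -1.51 in ko and -1.66 in wt.

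Serpinb12, an intracellular inhibitor of trypsin-like proteases, had the largest change of any serpin in both genotypes. Its log2 intensity was 12.09 and 11.99 in ko CD80high cells, against 6.74 and 6.56 in ko CD80low cells. In wt it was 12.60 and 12.21 in CD80high cells, against 6.69 and 7.48 in CD80low cells. All 4 CD80high arrays lay far above all 4 CD80low arrays. The change was 5.39 ± 0.27 (SE) in ko (41.9-fold, limma adjusted p = 5.94e-07) and 5.32 ± 0.27 in wt (40.0-fold, limma adjusted p = 6.99e-07). Without background correction the change was 4.66 in ko and 4.74 in wt.

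Serpinb2, the type 2 plasminogen activator inhibitor, which blocks urokinase and tissue plasminogen activator, was second among clade b genes. It had 10.69 and 11.26 in ko CD80high cells, against 7.01 and 7.91 in ko CD80low cells. In wt it had 11.26 and 11.75 in CD80high cells, against 7.63 and 8.27 in CD80low cells. The subsets did not overlap, although the arrays of each CD80low group lay apart. The change was 3.52 ± 0.35 in ko and 3.55 ± 0.35 in wt (11.5-fold and 11.7-fold, limma adjusted p = 2.31e-05 and 2.20e-05).

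Serpinb3a, Serpinb3c and Serpinb3d, mouse relatives of the human squamous cell carcinoma antigens, were all higher in CD80high cells of both genotypes. Serpinb3c had 7.23 and 6.91 in ko CD80high cells, against 5.29 and 5.14 in ko CD80low cells, and 7.65 and 7.50 in wt CD80high cells, against 5.06 and 5.11 in wt CD80low cells. No CD80low array lay above background, so Serpinb3c was at least 3.16-fold higher in ko and at least 4.54-fold higher in wt. Serpinb3d was likewise at least 1.61-fold higher in ko and at least 1.91-fold higher in wt. These bounds hold with the background correction used, and without it Serpinb3c changed by 0.94 in ko and 1.34 in wt and Serpinb3d by 0.47 and 0.59. Serpinb3a changed by 1.48 ± 0.41 in ko and 1.93 ± 0.41 in wt, and its ko CD80low arrays read 5.54 and 6.99. The ko call of Serpinb3a was lost without ko CD80high replicate 1 (limma adjusted p = 0.108) and without ko CD80low replicate 1 (limma adjusted p = 0.0900). The 3 genes are near copies of each other, and how far their probes share targets is not known here. The other 2 probes of Serpinb3a and the other probe of Serpinb3d lay near background and changed by no more than 0.35 in either genotype.

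Other clade b members showed smaller changes. Serpinb1a, an inhibitor of neutrophil elastase and cathepsin G, had 11.11 and 11.37 in ko CD80high cells, against 9.03 and 10.14 in ko CD80low cells, and 11.27 and 11.56 in wt CD80high cells, against 9.73 and 9.99 in wt CD80low cells. It rose by 1.65 ± 0.32 in ko and 1.55 ± 0.32 in wt (limma adjusted p = 0.00218 and 0.00305), and the subsets did not overlap. Serpinb6b rose by 1.25 in both genotypes. Its relative Serpinb6a was bright on every array (11.98 to 12.45 in CD80high cells and 11.51 to 11.88 in CD80low cells) and was called in wt alone, with changes of 0.36 in ko and 0.67 in wt. Serpinb6c went the other way and was called in ko alone, at -0.86, against -0.63 in wt. Serpinb9f, a relative of the granzyme B inhibitor Serpinb9, was called in ko alone, at least 1.13-fold higher, with a change of -0.07 in wt. The calls of Serpinb6a, Serpinb6b, Serpinb6c and Serpinb9f each failed in at least 1 alternative. Serpinb11 read 9.33 to 9.78 in CD80high cells and 9.15 to 9.47 in CD80low cells and was not called in either genotype, although its wt change passed without background correction (0.35, limma adjusted p = 0.0491). The Serpinb6 and Serpinb9 genes are families of close copies, so their probes may share targets. The remaining 13 clade b genes, among them the granzyme B inhibitor Serpinb9 and the epithelial Serpinb5, did not pass the background filter.

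**Figure D2:**
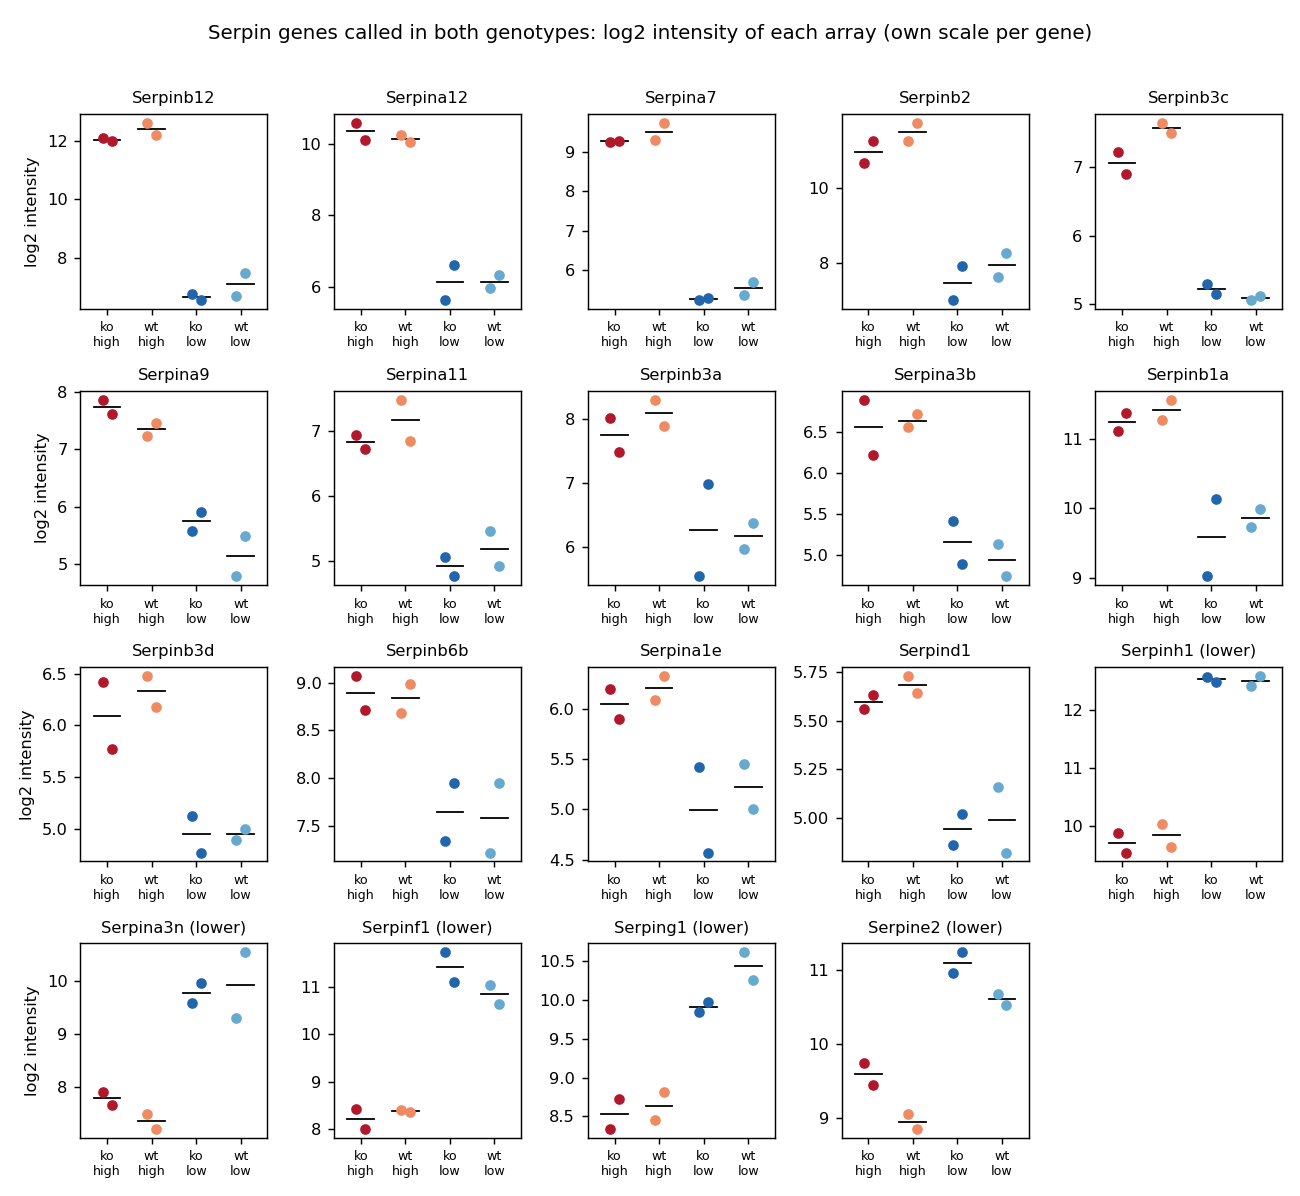
Log2 intensity of each array for the 19 serpins called in the same direction in both genotypes, 1 panel per gene with its own vertical scale. Points are arrays (ko CD80high, wt CD80high, ko CD80low, wt CD80low from left to right), and lines are group means. In each panel all CD80high arrays lie on 1 side of all CD80low arrays. The 19 were picked by these calls. Of all 14392 tested genes, the subsets did not overlap for 5056 higher and 5304 lower in ko and 5179 and 5293 in wt.

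Among the tested plasma serpins Serpina7 and Serpina12 changed most. Serpina7, thyroxine-binding globulin, which carries thyroid hormone in blood, had 9.27 and 9.28 in ko CD80high cells, against 5.24 and 5.28 in ko CD80low cells. In wt it had 9.31 and 9.74 in CD80high cells, against 5.37 and 5.69 in CD80low cells. It was bright on every CD80high array and above background on 1 of the 4 CD80low arrays. It was at least 14.6-fold higher in ko and rose by 3.99 ± 0.21 in wt (15.9-fold), with limma adjusted p = 7.66e-07 and 8.71e-07. Without background correction its change was 2.69 in ko and 2.81 in wt.

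Serpina12, or vaspin, an adipokine that inhibits kallikrein 7, had 10.59 and 10.13 in ko CD80high cells, against 5.63 and 6.60 in ko CD80low cells. In wt it had 10.25 and 10.05 in CD80high cells, against 5.96 and 6.32 in CD80low cells. The subsets lay far apart in both genotypes, with changes of 4.25 ± 0.31 in ko and 4.01 ± 0.31 in wt (limma adjusted p = 3.41e-06 and 4.80e-06). Klk7, which encodes kallikrein 7, was itself higher in CD80high cells, by 3.07 in ko and 2.68 in wt. Second probes of Serpina7 and Serpina12 lay near background. That of Serpina7 changed by 0.69 in ko and 1.47 in wt and that of Serpina12 by 0.08 and 0.34.

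Serpina9, known in humans as a serpin of germinal centre B cells, had 7.87 and 7.61 in ko CD80high cells, against 5.58 and 5.91 in ko CD80low cells, and 7.24 and 7.46 in wt CD80high cells, against 4.79 and 5.49 in wt CD80low cells. It rose by 1.99 ± 0.26 in ko and 2.21 ± 0.26 in wt, with no overlap, and by 1.21 in ko and 1.15 in wt without background correction. Of the 3 B cell markers on the array, Pax5 was above background on no array and Ms4a1 on 2, while Cd79b read 8.73 to 9.31 on CD80high arrays and 6.51 to 7.93 on CD80low arrays. Their part in the Serpina9 result was not tested. Serpina11 was at least 2.69-fold higher in ko and 3.93-fold higher in wt, and its second probe changed by 0.35 and 0.09. Serpina3b, of the mouse antichymotrypsin cluster, was 2.65-fold higher in ko and at least 2.36-fold higher in wt. Without background correction the fold of 9 of the 22 called serpins was more than 1.5 times smaller in ko, and likewise of 9 of 22 in wt. Serpina11 then changed by 0.89 in ko and 1.02 in wt, Serpina3b by 0.65 and 0.76, and Serpina12 by 3.31 and 3.11.

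The alpha-1-antitrypsin copies, whose human counterpart inhibits neutrophil elastase, were dim. Serpina1e read 5.90 to 6.33 on CD80high arrays and 4.57 to 5.45 on CD80low arrays and was called in both genotypes (1.06 in ko and 0.98 in wt). Serpina1b, with changes of 0.34 in ko and 1.25 in wt, and Serpina1d, with 0.50 in ko and 1.03 in wt, were called in wt alone. Serpina1c was called in neither genotype, and Serpina1a was not tested. The genotype by subset difference was not called for any of them, and the calls of Serpina1d and Serpina1e each failed in at least 1 alternative. These genes are near-identical copies, so which of them the probes read is uncertain. In the same cells the hepatocyte marker list averaged 9.26 to 9.59 (log2) on CD80high arrays and 6.17 to 6.57 on CD80low arrays, and all 5 of its 7 markers that were tested were called higher in both genotypes. Alb and Fgb, which define hepatocytes, were above background on no array. Serpinc1 (antithrombin) and Serpinf2 (alpha-2-antiplasmin), also liver products, did not pass the filter, with at most 1 and 2 arrays above background for any of their probes.

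Inhibitors of coagulation and complement were mixed. Serpind1, heparin cofactor II, was above background in CD80high cells only, at least 1.14-fold higher in ko and 1.23-fold in wt, and its calls failed in several alternatives. Serpina10, the protein Z-dependent inhibitor of factor X, and Serpina5, the protein C inhibitor, were above background on all 8 arrays and were not called, with changes of 0.36 and 0.19 in ko and 0.39 and 0.16 in wt. Serping1, the C1 inhibitor of complement, had 8.34 and 8.72 in ko CD80high cells, against 9.84 and 9.97 in ko CD80low cells, and 8.46 and 8.82 in wt CD80high cells, against 10.61 and 10.25 in wt CD80low cells. All CD80low arrays were the brighter ones, and the change was -1.37 ± 0.23 in ko and -1.79 ± 0.23 in wt (limma adjusted p = 0.000804 and 0.000132). Both Serping1 probes fell.

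Serpina3n, an acute phase inhibitor of chymotrypsin-like proteases, was the plasma serpin with the largest fall. It had 7.91 and 7.66 in ko CD80high cells, against 9.58 and 9.96 in ko CD80low cells, and 7.49 and 7.21 in wt CD80high cells, against 9.31 and 10.54 in wt CD80low cells. Its change was -1.98 ± 0.35 in ko and -2.57 ± 0.35 in wt, and the wt CD80low arrays differed by more than 1 on the log2 scale. Serpina3f, of the same cluster, was not called, at -0.65 in ko and -0.20 in wt.

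**Figure D3:**
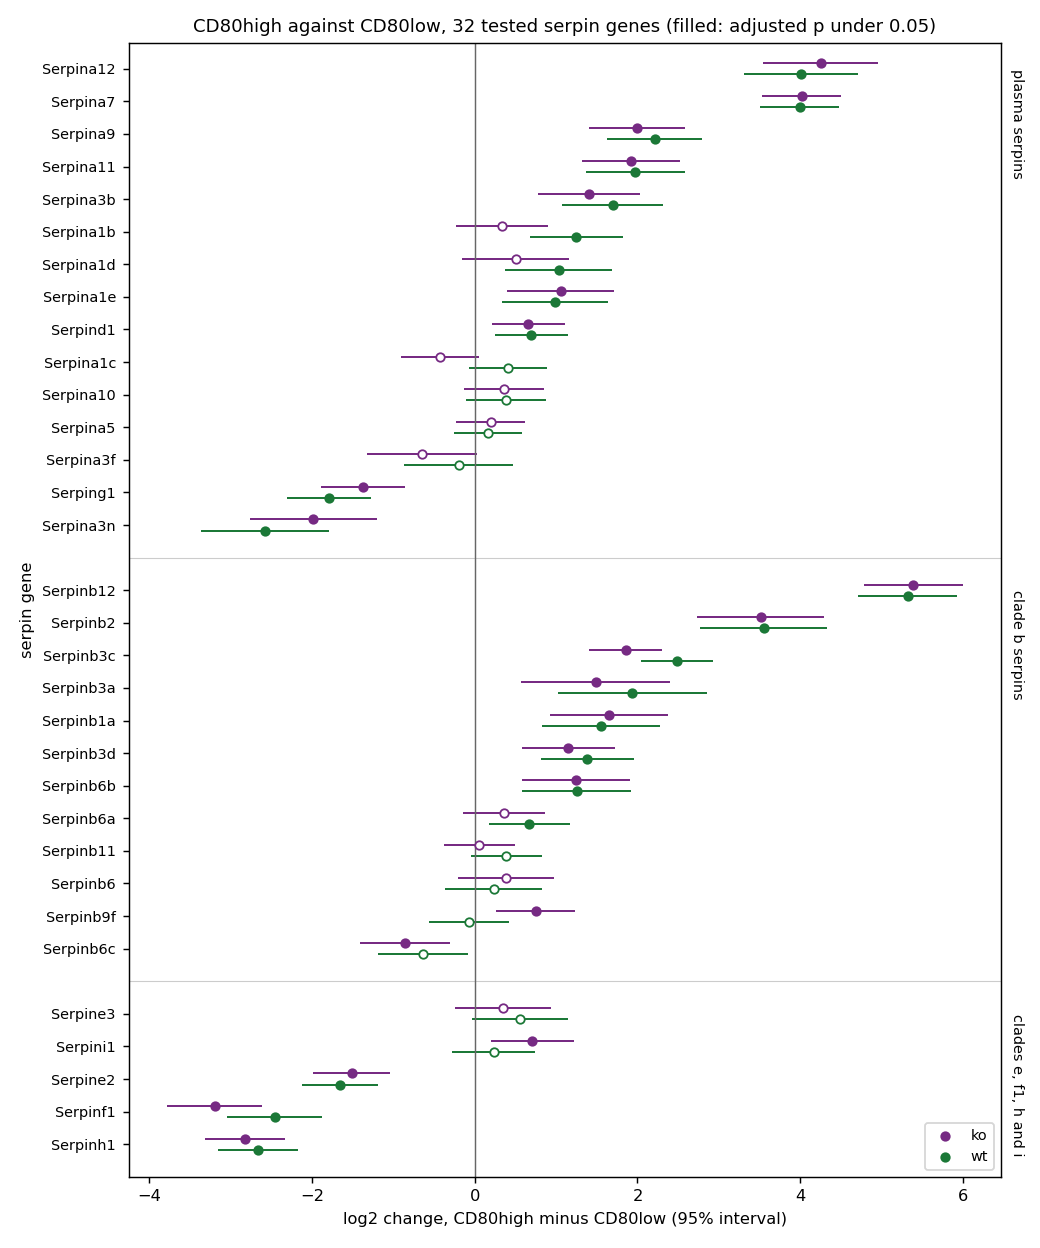
Log2 change of CD80high against CD80low cells (horizontal axis, with 95% intervals) for the 32 tested serpins, ko above wt, grouped by class. Filled points passed an adjusted p under 0.05. Serpinb12 stands at 5.39 in ko and 5.32 in wt, and Serpinf1 at -3.19 and -2.46. Genes with a dim group carry fitted values here, not the bounds given in the text.

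Of the 5 tested serpins of clades e, h and i and Serpinf1, 3 were lower in CD80high cells of both genotypes: Serpinh1, Serpinf1 and Serpine2. Serpinh1, the collagen chaperone of the endoplasmic reticulum, had 9.87 and 9.54 in ko CD80high cells, against 12.57 and 12.49 in ko CD80low cells. In wt it had 10.04 and 9.64 in CD80high cells, against 12.41 and 12.59 in CD80low cells. The CD80low arrays were tightly grouped and well above all CD80high arrays, and the change was -2.82 ± 0.21 in ko and -2.66 ± 0.21 in wt (limma adjusted p = 4.19e-06 and 6.18e-06). Its second probe changed by -2.01 in ko and -1.87 in wt.

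Serpinf1, pigment epithelium-derived factor, a secreted serpin without known protease inhibition that restrains angiogenesis, had 8.43 and 8.01 in ko CD80high cells, against 11.72 and 11.10 in ko CD80low cells, and 8.40 and 8.36 in wt CD80high cells, against 11.03 and 10.64 in wt CD80low cells. The subsets did not overlap, and its change was -3.19 ± 0.26 in ko and -2.46 ± 0.26 in wt. A second, dimmer probe of Serpinf1 changed by only -0.43 in ko and -0.02 in wt, so the fall rests on 1 probe. Serpine2, protease nexin 1, which inhibits thrombin and urokinase at cell surfaces, had 9.74 and 9.44 in ko CD80high cells, against 10.96 and 11.24 in ko CD80low cells, and 9.05 and 8.85 in wt CD80high cells, against 10.68 and 10.53 in wt CD80low cells. Its change was -1.51 ± 0.21 in ko and -1.66 ± 0.21 in wt. Serpini1, neuroserpin, an inhibitor of tissue plasminogen activator, was called higher in ko alone (0.71, against 0.23 in wt), a call that failed in some alternatives. Serpine3 was not called with all arrays, and Serpini2 was not tested.

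Fibroblast marker signal moved with these falls. The mean of the 7 fibroblast markers was 6.13 to 6.40 on CD80high arrays and 7.16 to 7.36 on CD80low arrays, with 3 of 7 called lower and 1 higher in ko and 5 lower and 1 higher in wt. Dcn read 10.27 to 10.80 on CD80high arrays and 12.93 to 13.34 on CD80low arrays, whereas Col1a1 read 6.48 to 6.83 and 6.43 to 7.31. Cortical TEC markers averaged 6.86 to 7.32 on CD80high arrays and 8.02 to 8.84 on CD80low arrays. Of 6 tested, 4 were called lower and 1 higher in ko and 3 lower and 1 higher in wt. Among them Ccl25 read 12.53 to 12.96 on CD80high arrays and 11.20 to 12.23 on CD80low arrays. Suprabasal keratinocyte markers moved with the clade b rises, averaging 10.72 to 11.15 on CD80high arrays and 7.12 to 8.61 on CD80low arrays, with all 4 tested of 6 called higher in both genotypes. Myeloid and dendritic cell markers, of which 5 of 8 were tested and 4 called higher in both genotypes, averaged 7.77 to 7.95 on CD80high arrays and 6.22 to 6.56 on CD80low arrays. Among them Lyz2 read 11.81 to 12.25 on CD80high arrays and 8.35 to 9.76 on CD80low arrays, and Itgax was above background on no array. Erythroid markers, with 3 of 5 tested called higher in both genotypes, averaged 7.99 to 8.55 on CD80high arrays and 6.16 to 7.90 on CD80low arrays. The part of these cell types in the serpin results was not tested. Between the CD80low replicates, which differ in thymocyte signal, Serpina3n, Serpinb3a and Serpinb1a had visible gaps. Without both CD80low arrays of replicate 1, 14 serpins were higher and 5 lower in ko and 17 higher and 6 lower in wt.

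On the chromosomes, 13 members lie on chromosome 1, 18 on chromosome 12 and 13 on chromosome 13. On chromosome 1, 5 of the clade b genes were higher in both genotypes (Serpinb12, Serpinb3a, Serpinb3d, Serpinb3c and Serpinb2, in that order along the chromosome), Serpinb11 between them was not called, and 5 more were not tested. The chromosome 12 cluster of clade a held 5 genes that were higher in both genotypes, and 1 that was lower, Serpina3n at the end of the member order. Of the 5, Serpina1e, Serpina11, Serpina9 and Serpina12 are next to each other among the members. On chromosome 13, Serpinb1a and Serpinb6b were higher in both genotypes and 8 of 13 members were not tested. Order is that of RefSeq genes in the same assembly.

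Deletion of Hipk2 was asked about by comparing ko with wt in each subset. No serpin was called by limma in either subset: 0 of 32 in CD80high and 0 of 32 in CD80low cells, where 0.00695% of all tested genes were called in each (1 gene, Slc13a2, named after its values were seen). At an unadjusted p under 0.05 there were 2 serpins in CD80high cells and 5 in CD80low cells, beside 224 and 960 of all tested genes. Averaged over the subsets, 0 serpins and 0.00695% of all genes were called, and 2 serpins had an unadjusted p under 0.05 beside 741 of all tested genes. For the difference between the subsets' genotype effects, 0 serpins and 0% of all genes were called, and 4 serpins had an unadjusted p under 0.05 beside 458 of all genes. Of 6 tuft cell markers 5 were tested and 0 were called between the genotypes. Their mean was 6.82 and 6.80 in ko CD80high cells, against 7.34 and 7.05 in wt CD80high cells, and 8.14 and 8.20 in ko CD80low cells, against 10.09 and 9.32 in wt CD80low cells. Their median change was -0.60 in CD80high and -1.70 in CD80low cells, Pou2f3 was above background on no array, and their part in the genotype values of the serpins was not tested.

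Serpine2 had the smallest p of any serpin averaged over the subsets. It had 9.74 and 9.44 in ko CD80high cells, against 9.05 and 8.85 in wt CD80high cells, and 10.96 and 11.24 in ko CD80low cells, against 10.68 and 10.53 in wt CD80low cells. Every ko array lay above both wt arrays of its subset, and the group means differed by 0.64 ± 0.21 in CD80high and 0.50 ± 0.21 in CD80low cells. Such separation was common. Of all 14392 tested genes, both ko arrays lay above both wt arrays for 1875 and below for 2170 in CD80high cells. In CD80low cells this held for 2167 and 2256. Averaged over the subsets the difference was 0.57 ± 0.15, with a limma adjusted p = 0.409. The averaged differences of Serpina9 (0.50 ± 0.18), Serpinb12 (-0.40), Serpinb2 (-0.51) and Serping1 (-0.32) had limma adjusted p between 0.825 and 1.00.

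Within CD80low cells the smallest p-values beside Serpine2 belonged to Serpinb9f (-0.54), Serpina9 (0.61), Serping1 (-0.53) and Serpinf1 (0.57), all with limma adjusted p between 0.679 and 0.747. Within CD80high cells those beside Serpine2 belonged to Serpinb3c (-0.50), Serpinb11 (-0.41), Serpini1 (0.45) and Serpina1b (-0.47), with adjusted p of 1.00. For the interaction, Serpina1c (-0.83), Serpinb9f (0.82), Serpina1b (-0.91), Serpinb3c (-0.63) and Serpinf1 (-0.74) had the smallest p, with adjusted p of 1.00. The 95% interval of the ko minus wt change stayed within -1 and 1 for 26 of 32 serpins in CD80high cells and for 26 of 32 in CD80low cells. For the other 6 in each subset a change of 1 or more on the log2 scale lies inside the interval. At 2 arrays against 2, the smallest p that an exact two-sided permutation test of 1 gene can reach is 0.333.

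**Figure D4:**
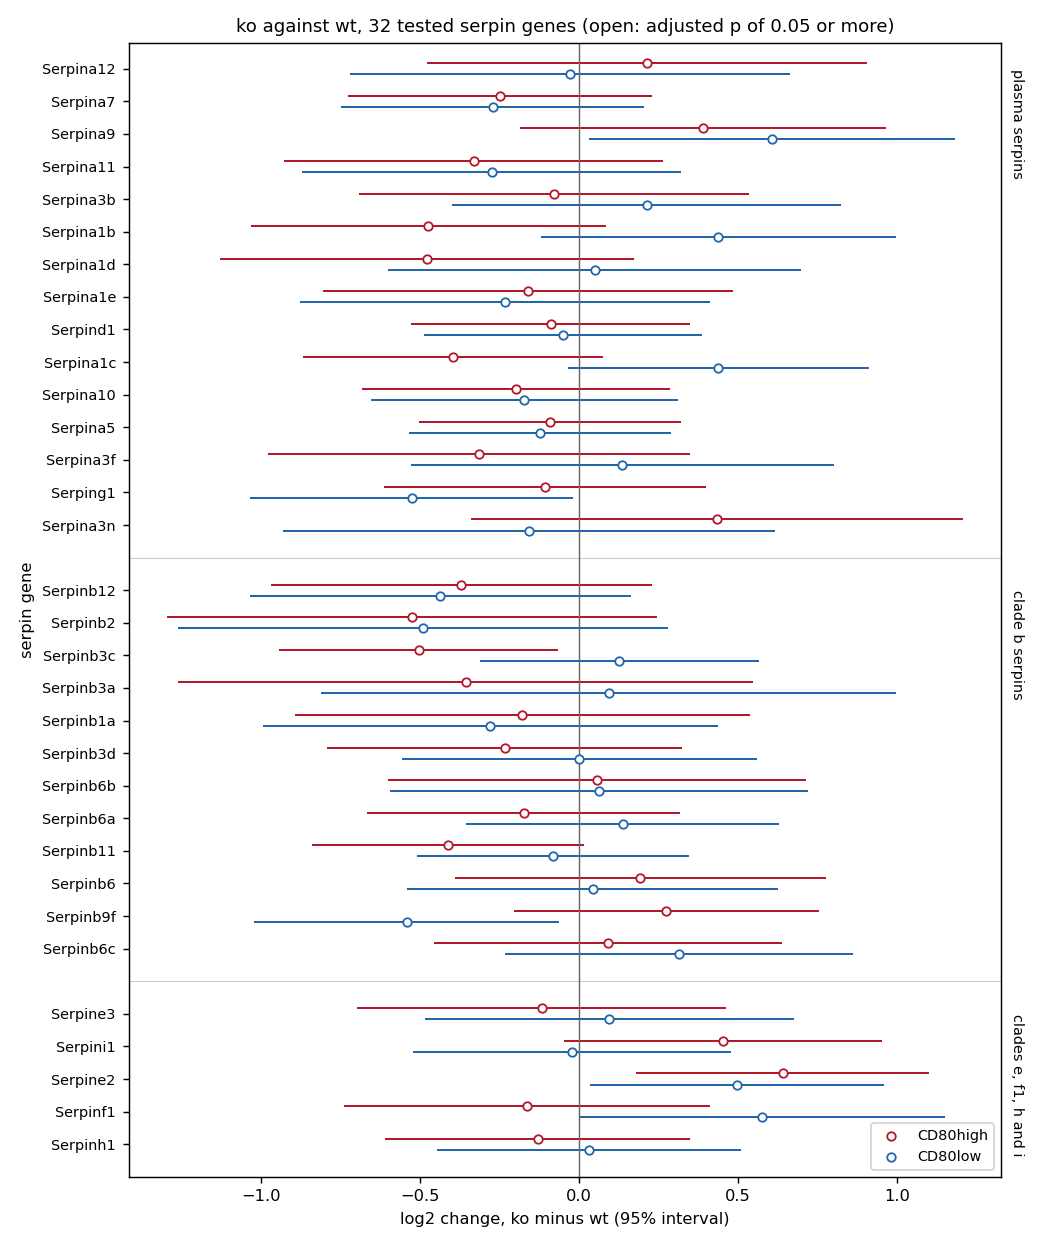
Log2 change of ko against wt (horizontal axis, with 95% intervals) for the 32 tested serpins, CD80high above CD80low, grouped by class. All points are open because no adjusted p was under 0.05. Serpine2 is higher in ko in both subsets, by 0.64 and 0.50.

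Proteases that serpins can inhibit were read in the same contrast, where 22.1% of all tested genes were called higher in ko and 22.4% in wt. The shares called lower were 18.8% in ko and 19.4% in wt. Of the fibrinolysis and coagulation proteases, 7 of 9 tested were higher and 0 lower in ko and 6 higher and 0 lower in wt. Of the 9, 6 had passed the filter only through CD80high groups, and the other 3 had 2 called higher in each genotype. Of all 2341 tested genes that passed only through CD80high groups, 52.1% were called higher in ko and 53.1% in wt. Plat, tissue plasminogen activator, which Serpinb2, Serpine2 and Serpini1 can inhibit, had 9.22 and 9.48 in ko CD80high cells, against 8.00 and 8.40 in ko CD80low cells, and 9.53 and 9.65 in wt CD80high cells, against 8.33 and 8.09 in wt CD80low cells. It rose by 1.15 ± 0.21 in ko and 1.38 ± 0.21 in wt. F2, prothrombin, the thrombin precursor, rose by 1.65 and 1.53, and F10 was at least 3.18-fold higher in ko and at least 3.93-fold in wt.

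Among epithelial membrane and kallikrein proteases, 7 of 9 were higher and 0 lower in both genotypes, with 6 of 8 higher among those that passed through both subsets. Klk5, a kallikrein of the skin barrier, was at least 7.83-fold higher in ko and 14.4-fold higher in wt, and Tmprss2 rose by 2.18 and 2.63. Leukocyte granule proteases had 5 of 8 higher and 0 lower in both genotypes, led in wt by the mast cell proteases Mcpt4 (at least 4.74-fold higher in ko and 5.47-fold in wt) and Tpsb2. Of the 8, 4 had passed only through CD80high groups and all 4 were called higher. By that route 52.1% of all genes were called higher in ko and 53.1% in wt. Of the other 4, 1 was called higher. The myeloid and dendritic markers given above were also higher in CD80high cells. Their part in these protease values was not tested. Pancreatic proteases had 6 of 8 higher in ko and 7 of 8 in wt with 0 lower, among them Ctrb1, Cela2a and Try10, and 5 of the 8 had passed only through CD80high groups.

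The lysosomal cathepsins split, with 5 of 8 higher and 2 lower in ko and 5 higher and 1 lower in wt. Ctsh had 12.82 and 12.70 in ko CD80high cells, against 8.47 and 9.07 in ko CD80low cells, a rise of 3.99 ± 0.22, and rose by 3.94 ± 0.22 in wt. Ctsl, the cathepsin of cortical TECs, fell, with changes of -2.91 ± 0.28 in ko and -2.58 ± 0.28 in wt. Ctsl had passed the filter only through CD80low groups, a route that favours lower values in CD80high cells. Of all 796 tested genes that passed that way, 32.2% were called lower in ko and 34.2% in wt, and 0% higher. Casp1 and Casp4, the inflammatory caspases, were 2 of 3 caspases tested and both rose in both genotypes, by 1.79 and 1.06 in ko and 1.93 and 1.15 in wt.

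Of 6 receptors and cofactors tested, 1 was higher and 2 were lower in ko and 0 were higher and 2 lower in wt. Thbd, thrombomodulin, the thrombin cofactor, was at least 6.40-fold lower in ko and at least 5.74-fold lower in wt. Thbd, like Lrp1 of this list, had passed the filter only through CD80low groups. By that route 32.2% of all genes were called lower in ko and 34.2% in wt. Plaur, the urokinase receptor, fell, with changes of -1.41 in ko and -1.27 in wt. Lrp2, an endocytic receptor, was called in ko alone (0.80, against 0.71 in wt). Of the complement and contact proteases only 2 of 7 were tested, and C1s1, a target of Serping1, was at least 1.77-fold lower in ko and 2.15-fold lower in wt. C1s1 had also passed the filter only through CD80low groups. No gene of these lists was called between ko and wt in either subset.

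**Figure D5:**
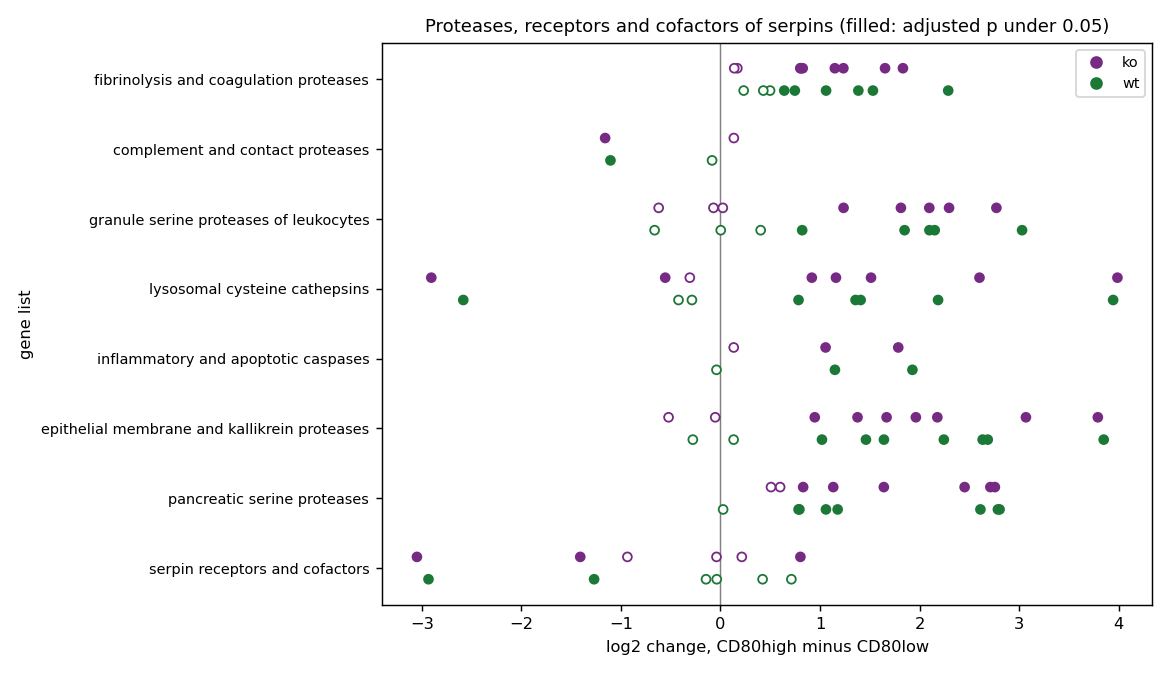
Log2 change of CD80high against CD80low cells (horizontal axis) for the tested genes of 8 lists of serpin targets, receptors and cofactors, ko above wt in each row. Filled points passed an adjusted p under 0.05. Ctsh stands at 3.99 in ko and 3.94 in wt, and Ctsl at -2.91 and -2.58.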

How the data were processed

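Expression was measured on 8 Illumina bead arrays, hybridised, per the labels' protocols, with biotin-labelled cRNA made from 200 ng of total RNA of sorted mTECs. The deposited intensity values, 1 per probe and array, are on a linear scale and had been made comparable by the authors by a method not given in the sources used here. A second deposited table was left out because its 16 value columns carry slide positions as names and could not be matched to samples. Bead arrays have no read depth, so the number of arrays limits the precision.

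Intensities were corrected with normexp of limma 3.58.1 in R 4.3.3 (parameters from each array, offset 16), quantile-normalised over 8 arrays, which normalises them a second time, and log2-transformed. A probe was tested if it exceeded the 95th percentile of its array's background, estimated from the values under its peak, on each array of 1 or more groups. This kept 23378 probes (50.7%). Of 46089 probes, 35667 carried 1 gene symbol, 0 several and 10422 none. The brightest tested probe on average stood for its gene, and 1 limma fit of 4 group means (4 residual and 6.15 prior degrees of freedom) gave each contrast with two-sided p-values adjusted by Benjamini-Hochberg over 14392 genes. An "at least" fold sets the brighter group against, per array, the higher of the dim probe's own value and the lowest value above background. Probe names came from the platform table, and 53 of 54 members matched RefSeq GRCm38.p6. The fit was tested on simulated data.

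The members, classes, lists and naming rule were chosen with earlier results of these data known. Named were Serpinb12, called serpins whose arrays do not overlap (up to 10 rises and 10 falls per subset contrast), the 5 smallest p-values per genotype contrast, all serpins of clades c to i, the brightest and dimmest of each clade, and up to 4 genes per protease list; other members are named only where a count or family needed it. Replicate numbers 1 and 2 recur in each group without a stated shared mouse, so no replicate term was used. Alternatives were the background correction, scaling, offset, filter, prior, arrays fitted, probe rule, a replicate block and leaving arrays out.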

Additional observations from a re-analysis of the deposited data

How the results depend on the processing

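The number of called serpins in CD80high against CD80low cells ran from 16 to 23 in ko (22 as reported) and from 18 to 23 in wt (22 as reported) over all alternatives. Leaving out single arrays gave 16 to 23 in ko and 18 to 22 in wt. No serpin was called between ko and wt, on average or in the interaction, under any alternative run, and no called serpin reversed. Of the 22 called in ko, 15 kept the call in every alternative, and of the 22 in wt, 17 did. In ko, leaving out CD80high replicate 1 ended the calls of Serpina1e (adjusted p = 0.0968), Serpinb9f (0.116), Serpinb6b (0.0601), Serpind1 (0.0671), Serpinb3a (0.108) and Serpini1 (0.0694). Leaving out ko CD80high replicate 2 ended Serpinb6c (0.121), Serpind1 (0.0875) and Serpini1 (0.122). Without ko CD80low replicate 1, Serpinb6b (0.0502), Serpinb6c (0.110), Serpind1 (0.107), Serpinb3a (0.0900) and Serpini1 (0.155) were lost, and without replicate 2, Serpina1e (0.112) and Serpinb9f (0.113). In wt, leaving out CD80high replicate 1 ended Serpina1e (0.0532), Serpina1d (0.114), Serpinb6a (0.164) and Serpind1 (0.0965), and replicate 2 ended Serpina1e (0.114), Serpinb6a (0.0805), Serpinb6b (0.0549) and Serpind1 (0.0614). Without wt CD80low replicate 1, Serpinb6a (0.171) and Serpinb6b (0.0512) were lost, and without replicate 2, Serpina1e (0.113), Serpina1d (0.101) and Serpind1 (0.0945). These fits have fewer samples. Without both CD80low arrays of replicate 1 the lone array of each group is assumed to vary like the others, and Serpinb6c, Serpind1, Serpinb3a and Serpini1 in ko and Serpinb6a in wt were lost. Without background correction or from the deposited values, Serpind1 was lost in both genotypes and Serpinb9f in ko, and several changes shrank, as for Serpina7 (2.67 in ko and 2.82 in wt from the deposited values). With an offset of 50, Serpinb9f (0.0566) and Serpind1 (0.0656) were lost in ko, and without a filter Serpinb6a (0.0506) in wt. Calls were gained for Serpinb11 in wt without background correction (0.0491) and from the deposited values (0.0433), for Serpine3 (0.0251) and Serpinb6c (0.0223) in wt and Serpinb6 in ko (0.0221) without both CD80low arrays of replicate 1, for Serpinb6 in ko without ko CD80low replicate 1 (0.0313), Serpina1d in ko without ko CD80high replicate 2 (0.0447), Serpina3f in ko without either wt CD80low array (0.0468 each), Serpinb6c in wt without wt CD80low replicate 1 (0.0359) and Serpina1c in wt without wt CD80low replicate 2 (0.0389). Signal near background limits what the dim probes can show.

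With the replicate number as a replicate block, 22 serpins were called in ko and 22 in wt, and 0 between genotypes. Samples of the same number deviated together within a subset (r = 0.473 in CD80high and 0.512 in CD80low) and hardly across subsets (0.0677 to 0.140), and with 2 numbers this does not establish pairs.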
